A study of Mus musculus with 6 samples.

Results

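The clustered replication-dependent histone genes encode the linker histone H1 and the core histones H2A, H2B, H3 and H4, and most of them lie side by side on mouse chromosomes 13 and 3. They were taken here by symbol: every gene named H2ac, H2bc, H3c or H4c plus a number, and H1f1 to H1f5. Of 63 such symbols 59 were listed in at least 1 of 6 libraries, among 16058 identifiers in all: 5 H1, 17 H2A, 15 H2B, 10 H3 and 12 H4 genes, 50 on chromosome 13 and 9 on chromosome 3. H2ac14, H2bc1, H3c10 and H3c14 were listed in none. A library listed 44 to 55 of the 59, and 37 were listed in all 6 libraries. The symbol rule leaves out 5 listed genes with an older clustered-histone name, H1f6, H2aw, H2bu2, H4bc24 and H4f16.

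The libraries are RNA-seq of spleen macrophages of C57BL/6 mice aged 6 to 8 weeks, sorted by surface Ly6c, a monocyte antigen, and F4/80, the macrophage protein encoded by Adgre1. The gates are Ly6chiF4/80lo, Ly6cloF4/80lo and Ly6cloF4/80hi, each sequenced once from normal spleen and once from the spleen of mice with T cell acute lymphoblastic leukemia (T-ALL). The leukemic mice received 1000000 GFP-positive leukemia cells without irradiation, so that they kept their own hematopoietic cells, and their spleens were taken at day 15. How the donor leukemia arose is not given in the sources used here. With 1 library per gate and state, no value has a replicate error, and the 3 gates are the only repeats of a state. Whether gates came from the same mice, and how many mice were pooled, is not given in the sources used here, and p-values measure the spread between these libraries only.

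Values are FPKM, fragments scaled to transcript length and library size, and so are per length and can be compared between genes. They summed to 494558 to 583298 per library. The depth, estimated from the spacing of low values, was 6600000 to 8500000 fragments, at which 10 FPKM on a transcript of 500 bases corresponds to 33.0 to 42.7 fragments and a lone fragment to 0.23 to 0.30 FPKM. Adgre1 was at 529 and 234 FPKM in the Ly6cloF4/80hi libraries and at 47.3 to 86.7 FPKM in the other 4, and Ly6c2 was at 482 and 1405 FPKM in the Ly6chiF4/80lo libraries and at 11.8 to 21.4 FPKM in the other 4. The macrophage genes Cd68 and Csf1r ranged from 166 to 1488 FPKM over the 6 libraries. Other macrophage genes ranged more widely, Lyz2 from 670 to 12010, Spic from 20.8 to 837 and Itgam from 14.6 to 160 FPKM. Mertk was at 164 and 60.8 FPKM in the Ly6cloF4/80hi libraries and at 1.34 to 4.76 FPKM in the other 4. Fcgr1 was at 3.48 and 2.45 FPKM in the Ly6cloF4/80lo libraries and at 6.27 to 50.4 FPKM in the other 4. The B cell gene Cd79a was at 450 to 1167 FPKM over the 6 libraries. Below, values of a gene are given for Ly6chiF4/80lo, Ly6cloF4/80lo and Ly6cloF4/80hi in that order, normal first.

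These genes supply the histones that package newly copied DNA. An H3 and H4 core is joined by dimers of H2A and H2B to form the nucleosome, and H1 binds the DNA at its entry and exit. The genes lack introns. Most of their mRNAs end in a conserved stem-loop bound by Slbp instead of a poly(A) tail, are cut there by the U7 snRNP, and are made in S phase and degraded when DNA synthesis stops, although some of the genes also give polyadenylated transcripts. Resting macrophages are outside S phase for most of their lives, while erythroid and myeloid precursors of the mouse spleen divide.

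The stem-loop is the feature by which these mRNAs are processed, and it is shown for the genes whose values the results turn on and for each form found. A stem arm GGNNCT, a loop NTTN and the other arm AGNNCC in direct sequence, where N is any base, were searched on the transcript strand of GENCODE M21 protein-coding transcripts, and the pattern was found in 38 of the 59 genes, against 0.43% of 21842 other protein-coding genes (93 genes). Capitals mark its 16 bases, with up to 5 bases on either side.
H2ac23: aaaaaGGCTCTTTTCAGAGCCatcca
H2ac8: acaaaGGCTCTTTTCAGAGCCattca
H2bc8: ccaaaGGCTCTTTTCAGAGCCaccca
H3c3: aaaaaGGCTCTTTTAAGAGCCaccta
H2ac20: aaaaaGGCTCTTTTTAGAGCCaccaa
H4c4: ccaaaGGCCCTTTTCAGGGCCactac
H4c9: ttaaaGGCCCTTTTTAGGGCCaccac
H4c2: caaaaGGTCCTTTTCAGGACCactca

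On GRCm38 they lie at H2ac23 chr13:21810893-21810918 (plus strand), H2ac8 chr13:23570663-23570688 (minus strand), H2bc8 chr13:23571838-23571863 (plus strand), H3c3 chr13:23745042-23745067 (minus strand), H2ac20 chr3:96220413-96220438 (minus strand), H4c4 chr13:23581945-23581970 (plus strand), H4c9 chr13:22040961-22040986 (minus strand) and H4c2 chr13:23757361-23757386 (plus strand), all in the 3′ UTR. The form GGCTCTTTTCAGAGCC, seen in H2ac23, was in 22 genes of the H1, H2A, H2B and H3 classes. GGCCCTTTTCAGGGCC, seen in H4c4, was in 6 genes, all H4. GGCTCTTTTAAGAGCC (H3c3) was in 5 H2B and H3 genes, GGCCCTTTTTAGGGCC (H4c9) and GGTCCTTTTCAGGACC (H4c2) in 2 H4 genes each, and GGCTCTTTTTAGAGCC in H2ac20 alone. The annotated transcript ended under 100 bases after the stem-loop in 21 of the 38 genes and at least 300 bases after it in 15. In the other 21 of the 59 genes the pattern was not in the annotated transcript.

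Promoter sequence from RefSeq (GRCm38.p6, 250 bases before to 50 after the start) matched 54 of the 59 genes; H2bc4, H2bc21, H3c1, H3c7 and H4c14 had no entry. On either strand TATAAA was in 59.3% of the 54 and in 14.1% of 26971 other promoters of that length, and CCAAT in 85.2% and 37.8%. CCAAT was in every matched H1, H2A, H2B and H3 promoter and in 3 of 11 H4 promoters. The octamer ATTTGCAT, known from H2B promoters as a site for Oct-1 (Pou2f1), was in 6 of 17 H2A and 5 of 13 H2B promoters, in none of the other classes and in 1.7% of other promoters. AAACACA, known from H1 promoters, was in 4 of 5 H1 promoters and in 7.1% of other promoters. These promoters are shown up to their start site, with these motifs in capitals: H1f4 (chr13:23622559-23622808, minus strand), H4c4 (chr13:23581318-23581567, plus strand), and the shared stretch between the starts of the divergent pairs H2bc8 and H2ac8 (chr13:23571221-23571399, plus strand, H2bc8 reading rightward) and H2bc23 and H2ac23 (chr13:21810200-21810366, plus strand, H2ac23 reading rightward).
H1f4: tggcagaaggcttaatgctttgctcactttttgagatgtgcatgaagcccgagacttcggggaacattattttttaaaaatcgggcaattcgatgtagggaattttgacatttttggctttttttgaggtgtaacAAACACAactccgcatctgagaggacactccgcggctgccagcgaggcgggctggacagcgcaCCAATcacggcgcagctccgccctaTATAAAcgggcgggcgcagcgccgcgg
H4c4: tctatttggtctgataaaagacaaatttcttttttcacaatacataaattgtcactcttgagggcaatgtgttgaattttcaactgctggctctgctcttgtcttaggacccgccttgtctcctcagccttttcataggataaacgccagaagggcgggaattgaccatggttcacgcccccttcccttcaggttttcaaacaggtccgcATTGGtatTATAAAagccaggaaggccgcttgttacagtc
H2ac8 and H2bc8: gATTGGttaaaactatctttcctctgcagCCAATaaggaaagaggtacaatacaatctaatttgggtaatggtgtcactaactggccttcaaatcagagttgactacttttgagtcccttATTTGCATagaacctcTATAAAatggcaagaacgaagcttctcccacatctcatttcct
H2bc23 and H2ac23: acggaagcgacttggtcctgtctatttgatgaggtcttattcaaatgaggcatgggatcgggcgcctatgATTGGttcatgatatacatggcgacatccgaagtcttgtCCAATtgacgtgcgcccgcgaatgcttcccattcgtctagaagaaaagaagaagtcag
The H2ac8 and H2bc8 starts are 180 bases apart and share both CCAAT motifs, 1 octamer and 1 TATAAA, which stands nearer to H2bc8. Motif matches are descriptions of these letters and not measured binding.

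A pair of H2A genes made up a large part of the histone signal, and most of it in the T-ALL libraries. H2ac24 was at 185, 283 and 169 FPKM in normal and at 942, 886 and 1171 FPKM in T-ALL libraries. H2ac23, of nearly the same sequence, was at 226, 298 and 186 FPKM and at 1028, 888 and 1141 FPKM. Every T-ALL library was above every normal library for both. Of the summed histone FPKM the pair held 42.2% to 54.1% in normal and 65.7% to 66.3% in T-ALL libraries. Only 6.5% of the 50-base windows of the H2ac23 transcript and 6.9% of those of H2ac24 occur in no other gene, so how fragments were split between them and their near copies is uncertain, and the pair is best read as a sum.

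Other H2A genes above 10 FPKM did not all show the same order. H2ac8 was at 6.87, 37.9 and 14.8 FPKM in normal and at 77.9, 75.2 and 112 FPKM in T-ALL, with the normal Ly6cloF4/80lo library the highest of the normal 3. H2ac4 was at 5.92, 10.9 and 7.82 FPKM and at 37.6, 47.1 and 53.7 FPKM. H2ac20, a chromosome 3 gene, was at 2.27, 8.39 and 7.98 FPKM and at 14.2, 19.7 and 23.3 FPKM. The states did not overlap for any of these 3 genes. H2ac11 was listed at 0 in all 3 normal libraries and reached 4.05, 15.8 and 17.7 FPKM in the T-ALL libraries. H2ac18 was the third most abundant H2A gene and showed no such order, at 91.3, 92.7 and 107 FPKM in normal and at 114, 63.3 and 87.0 FPKM in T-ALL. H2ac6 was at 4.01, 7.03 and 10.3 FPKM and at 19.1, 9.92 and 13.7 FPKM, so the states overlapped. H2ac22 was at 6.71 and 9.05 FPKM in the normal F4/80lo gates, at 19.0 and 5.95 FPKM in the same gates of T-ALL, and listed at 0 in both Ly6cloF4/80hi libraries. The other 8 H2A genes were under 10 FPKM in every library.

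Linker histones were led by H1f2 and H1f4. H1f4 was at 12.2, 35.1 and 16.4 FPKM in normal and at 74.3, 70.0 and 70.2 FPKM in T-ALL, and H1f5 at 3.85, 7.93 and 3.94 FPKM and at 26.6, 22.0 and 33.0 FPKM. In both genes all T-ALL libraries were above all normal libraries. H1f2, which had the highest H1 level in every normal library, was at 35.8, 56.4 and 46.3 FPKM in normal and at 71.9, 47.4 and 49.8 FPKM in T-ALL, and its states overlapped. H1f1 (0.55 to 1.24 FPKM in normal, 1.67 to 4.19 FPKM in T-ALL) and H1f3 (1.19 to 3.42 and 4.40 to 5.11 FPKM) were low but did not overlap between states.

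The H2B genes with the highest levels, H2bc4 and H2bc8, did not separate the states. H2bc4 was at 19.0, 30.5 and 60.3 FPKM in normal and at 39.6, 23.7 and 57.4 FPKM in T-ALL, highest in Ly6cloF4/80hi in both states. H2bc8 was at 20.6, 28.0 and 41.0 FPKM and at 28.8, 26.1 and 26.9 FPKM. Among the lower genes of the class H2bc11, H2bc14, H2bc18 and H2bc23 did separate them, 4 of 15 against 13.8% of all genes tested. The states overlapped in the other 11 of all 15 H2B genes. H2bc14 reached 1 FPKM in no normal library, so the filter largely sets its order. H2bc18 was at 2.03, 2.47 and 2.56 FPKM in normal and at 10.7, 5.17 and 11.7 FPKM in T-ALL, and H2bc11 at 3.21, 3.52 and 0.80 FPKM and at 10.1, 7.85 and 4.62 FPKM. H2bc23 was at 1.44 to 1.97 FPKM in normal and at 4.37 to 7.71 FPKM in T-ALL, but none of its 50-base windows is unique, and its values equal those of H4bc24 (older name Hist1h2br) in all 6 libraries.

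Among H3 genes H3c11, with only 12.4% unique 50-base windows, was the highest, at 15.3, 27.2 and 15.9 FPKM in normal and at 69.1, 61.3 and 93.8 FPKM in T-ALL. H3c15, of the chromosome 3 cluster, was at 1.51, 1.70 and 4.51 FPKM and at 14.9, 18.1 and 22.9 FPKM. Both kept the states apart. H3c4 (2.57, 5.47 and 3.31 FPKM, then 4.10, 10.5 and 15.2 FPKM) and H3c13 (4.70, 6.39 and 3.47 FPKM, then 12.1, 5.05 and 7.96 FPKM) overlapped. H3c3 (1.03, 2.59 and 1.59 FPKM, then 10.4, 2.74 and 8.29 FPKM) and H3c6 (1.53, 7.23 and 9.52 FPKM, then 11.6, 9.69 and 9.55 FPKM) did not overlap, by narrow margins. H3c2 was listed at 0 in the normal libraries and at 3.73, 7.23 and 5.03 FPKM in T-ALL.

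H4c4 was the highest H4 gene, at 32.6, 76.3 and 39.1 FPKM in normal and at 179, 174 and 243 FPKM in T-ALL, with 89.8% of its 50-base windows found in no other gene. H4c9 was the most even, at 23.7, 31.6 and 27.7 FPKM and at 64.8, 64.6 and 63.2 FPKM. In both genes the states were far apart relative to the spread between gates. H4c17 (10.2, 8.45 and 12.7 FPKM, then 13.7, 19.7 and 13.1 FPKM) did not overlap either, though by little, and H4c3 (9.68, 14.9 and 10.4 FPKM, then 15.4, 15.97 and 13.8 FPKM) overlapped. Of all 59 genes 33 stayed under 10 FPKM in every library.

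**Figure D1:**
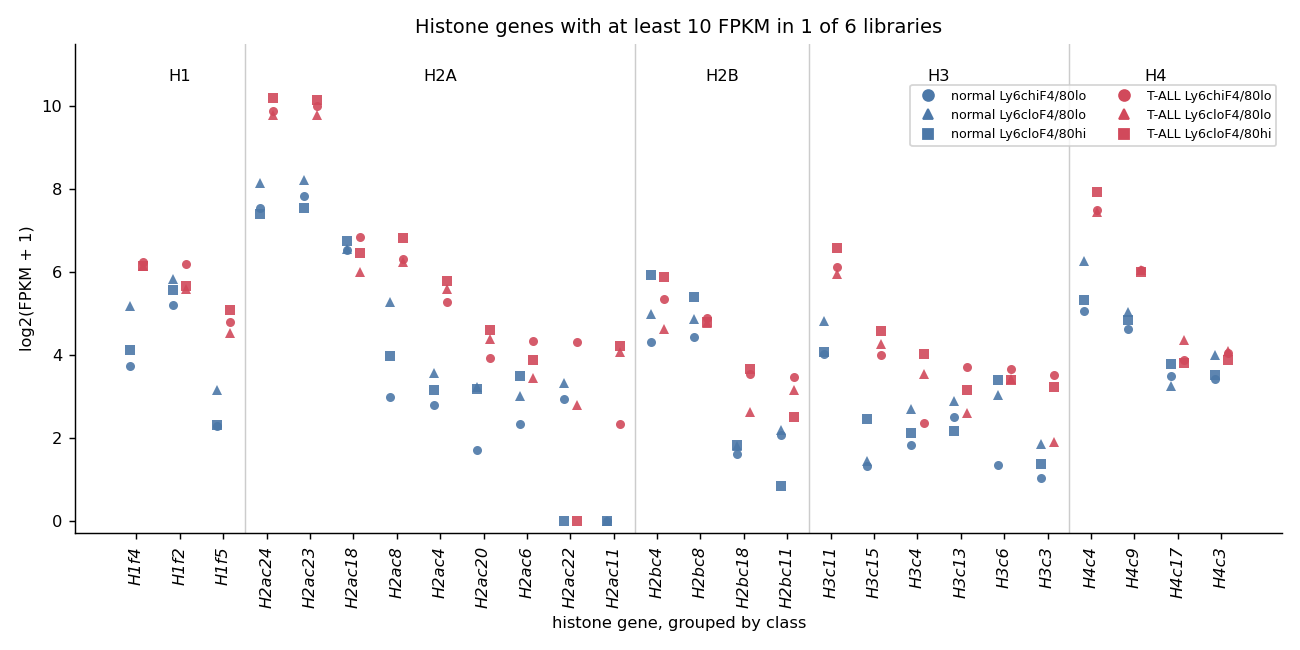
Level of the 26 histone genes with at least 10 FPKM in 1 library, as log2(FPKM + 1) on the vertical axis and genes on the horizontal axis, 1 point per library (blue normal, red T-ALL, shape for the gate). Red points lie above blue ones for H1f4, H1f5, H2ac24, H2ac23, H2ac8, H2ac4, H3c11, H3c15, H4c4 and H4c9, and mix with them for H1f2, H2ac18, H2bc4 and H2bc8.

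The sum over a class is less affected by how fragments were shared among near-identical copies. H2A summed to 534, 767 and 511 FPKM in normal and to 2267, 2023 and 2645 FPKM in T-ALL, 4.25, 2.64 and 5.17 times the normal value of the same gate. The near-identical H2ac23 and H2ac24 made up most of this, and the other 15 H2A genes summed to 123, 186 and 157 FPKM and to 297, 249 and 333 FPKM, with ratios of 2.42, 1.34 and 2.12. H3 summed to 28.1, 58.4 and 42.5 FPKM and to 135, 125 and 176 FPKM, with ratios of 4.82, 2.13 and 4.15. H4 (84.1, 139.7 and 99.6 FPKM, then 299.6, 291 and 366 FPKM) had ratios of 3.56, 2.08 and 3.68, and H1 (53.8, 104 and 68.4 FPKM, then 179, 148 and 162 FPKM) of 3.32, 1.42 and 2.36. H2B had the lowest ratio in every gate, 1.94, 1.05 and 1.20, from sums of 59.7, 88.4 and 117 FPKM in normal libraries, against 116, 92.7 and 141 FPKM in T-ALL. The normal Ly6cloF4/80lo library had the highest sum among the normal 3 for every class except H2B, and that gate the lowest ratio in every class. Ratios have 1 library on each side and no error.

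All 59 genes summed to 759.5, 1158 and 839 FPKM in normal and to 2997, 2679 and 3489 FPKM in T-ALL libraries, which is 0.148% to 0.217% and 0.484% to 0.607% of all FPKM. The ratios were 3.95, 2.31 and 4.16, and 2.95, 1.57 and 2.43 without H2ac23 and H2ac24. The 9 chromosome 3 genes summed to 112, 126 and 132 FPKM and to 177, 122 and 167 FPKM, ratios of 1.59, 0.969 and 1.26, with H2ac18 the largest among them. The 50 chromosome 13 genes had ratios of 4.35, 2.48 and 4.70. The H3 genes that encode H3.1 (H3c1, H3c8 and H3c11) had ratios of 4.63, 2.09 and 5.55, and the 7 that encode H3.2 of 5.07, 2.19 and 3.06. Most of the H3.1 sum was H3c11, which has 12.4% unique 50-base windows, and the H3.2 genes have 20.3% to 75.2%. How fragments were split between the H3.1 and H3.2 genes is therefore uncertain.

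**Figure D2:**
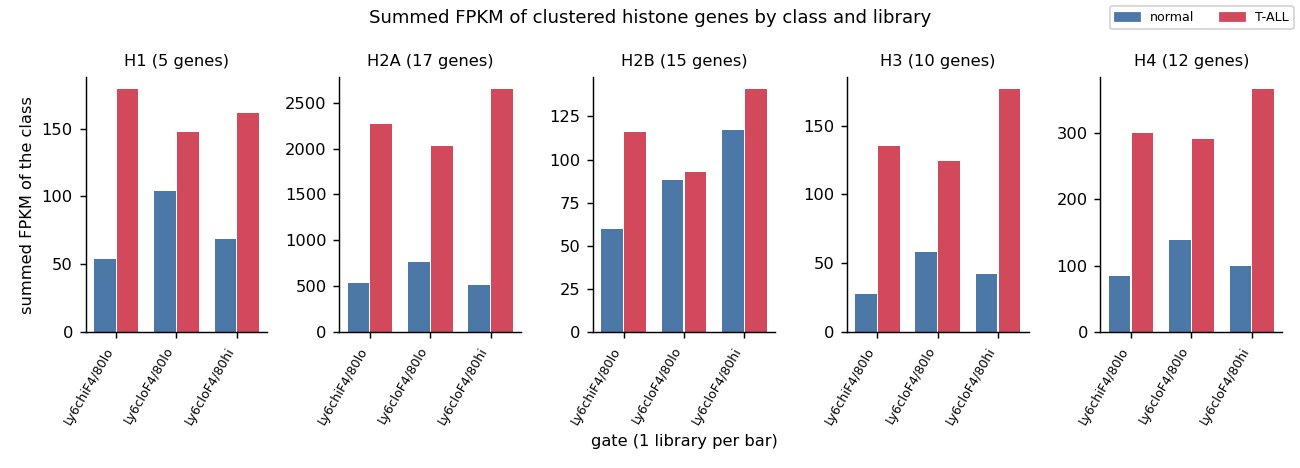
Summed FPKM (vertical axis, from 0, own scale in each panel) of the 5 histone classes in the 3 gates (horizontal axis), 1 bar per library, blue normal and red T-ALL. Red bars stand above blue ones in every panel and gate; the H2B bars are nearest to each other, at 88.4 and 92.7 FPKM in Ly6cloF4/80lo.

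The question of the state comparison was which histone genes differed between T-ALL and normal spleen across the 3 gates. The genes higher in T-ALL came from all 5 classes, with H3c15, H2ac8, H2ac4, H2ac24, H1f5, H2ac23 and H4c4 in front among those of at least 10 FPKM that were listed in normal libraries, while the abundant H1f2, H2ac18, H2bc4 and H2bc8 did not pass. Of the 59 genes 54 had at least 1 FPKM in at least 2 libraries and were tested, and H2ac1, H2ac21, H4c6, H4c11 and H4c18 were not. By limma on log2(FPKM + 1) with gate as a block, 24 of the 54 were higher in T-ALL at an adjusted p under 0.05, against 8.20% of 11616 genes, and 0 were lower, against 3.94%. At an unadjusted p under 0.05 these counts were 32 and 1, the latter H2ac19 (3.25, 6.26 and 0 FPKM, then 0, 2.95 and 0 FPKM). None of the 50-base windows of H2ac19 is unique, so its values depend on how fragments were shared among copies. The median log2 difference of the tested histone genes was 0.97, beside -0.03 for all genes tested. Some genes entered the test only through their T-ALL levels. H2ac11 and H3c2 were listed in no normal library, and the median without these 2 was 0.94. Together with H2ac15, H2bc14, H3c8, H4c1 and H4c2 they make 7 tested genes with at least 1 FPKM in no normal library. Of these 7, 6 were called higher, all but H3c8, though the filter admitted them by their T-ALL values. Of 41 with at least 1 FPKM in at least 2 normal libraries 17 were higher (8.18% of such genes overall). With a mean of at least 5 FPKM 14 of 26 were higher (11.2% overall), at a median log2 of 1.27.

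The call was widest in H1, with 4 of 5 genes higher (H1f1, H1f3, H1f4 and H1f5; median log2 1.14). It was reached by 7 of 15 tested H2A genes (H2ac4, H2ac8, H2ac11, H2ac15, H2ac20, H2ac23 and H2ac24; 0.95), 5 of 15 H2B genes (H2bc6, H2bc11, H2bc14, H2bc18 and H2bc23; 0.69), 3 of 10 H3 genes (H3c2, H3c11 and H3c15; median 1.28) and 5 of 9 tested H4 genes (H4c1, H4c2, H4c4, H4c8 and H4c9; 1.07). The share called higher over all genes tested was 8.20%. These counts include H2ac11, H2ac15, H2bc14, H3c2, H4c1 and H4c2, which the filter admitted by their T-ALL values. No difference between classes was tested. On chromosome 13 the call was reached by 21 of 46 genes (median 1.02) and on chromosome 3 by 3 of 8 (0.73). These counts depend on the setting. With no filter on low values, and also without gate as a block, H1f1, H1f3, H1f4, H2ac8, H2ac15 and H2bc6 were not called. Nor were H2bc14, H2bc18, H4c1, H4c2 and H4c8. H4c8 was also not called with a pseudocount of 0.1, rescaling by median ratios, quantile normalization or a plain limma prior.

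H3c15 was higher by 2.53 on the log2(FPKM + 1) scale (SE 0.19, adjusted p = 0.00832), H2ac8 by 2.38 (SE 0.43, adjusted p = 0.0273) and H2ac4 by 2.38 (SE 0.17, adjusted p = 0.00832). H2ac8 had an SE well above that of H2ac4 at the same difference, with its high value in normal Ly6cloF4/80lo. H2ac24 was higher by 2.26 (SE 0.26, adjusted p = 0.00994) and H2ac23 by 2.12 (SE 0.25, adjusted p = 0.0103). H1f5 was higher by 2.22 (SE 0.28, adjusted p = 0.0116), H4c4 by 2.07 (SE 0.29, adjusted p = 0.0146), H3c11 by 1.91 (SE 0.26, adjusted p = 0.0138) and H1f4 by 1.84 (SE 0.29, adjusted p = 0.0192). Each of these was higher in 3 of 3 gates. H2ac11, listed at 0 in the normal libraries, also passed (adjusted p = 0.00925); no fold is given for it. Among the abundant genes that did not pass, log2 differences were 0.28 for H1f2 (SE 0.24, adjusted p = 0.444), -0.17 for H2ac18 (SE 0.20, adjusted p = 0.563), 0.20 for H2bc4 (SE 0.27, adjusted p = 0.621) and -0.07 for H2bc8 (SE 0.21, adjusted p = 0.827).

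T-ALL libraries were above normal ones without overlap for 29 of the 54 tested genes, against 13.8% of all genes tested, and below them for none, against 10.9%. The 29 include the 7 genes that reached 1 FPKM in no normal library, for which the filter largely sets this order. Of all 59 genes 35 were higher in all 3 gates and 24 were mixed or level. The share of all genes with this order was not counted, so no more is read from it. The count of 24 was 7 without the normal Ly6cloF4/80hi library and 10 without the T-ALL one, 10 without gate as a block, and 13 with no filter on low values. The calls for H2ac23, H2ac24, H2ac4, H3c15 and H4c9 held under all 13 alternatives, those for H2ac8 and H1f4 were lost in 6 and 4, that for H4c4 in 2 (without either Ly6cloF4/80hi library), and those for H1f5, H2ac11 and H3c11 in 1 (without the normal Ly6cloF4/80hi library).

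**Figure D3:**
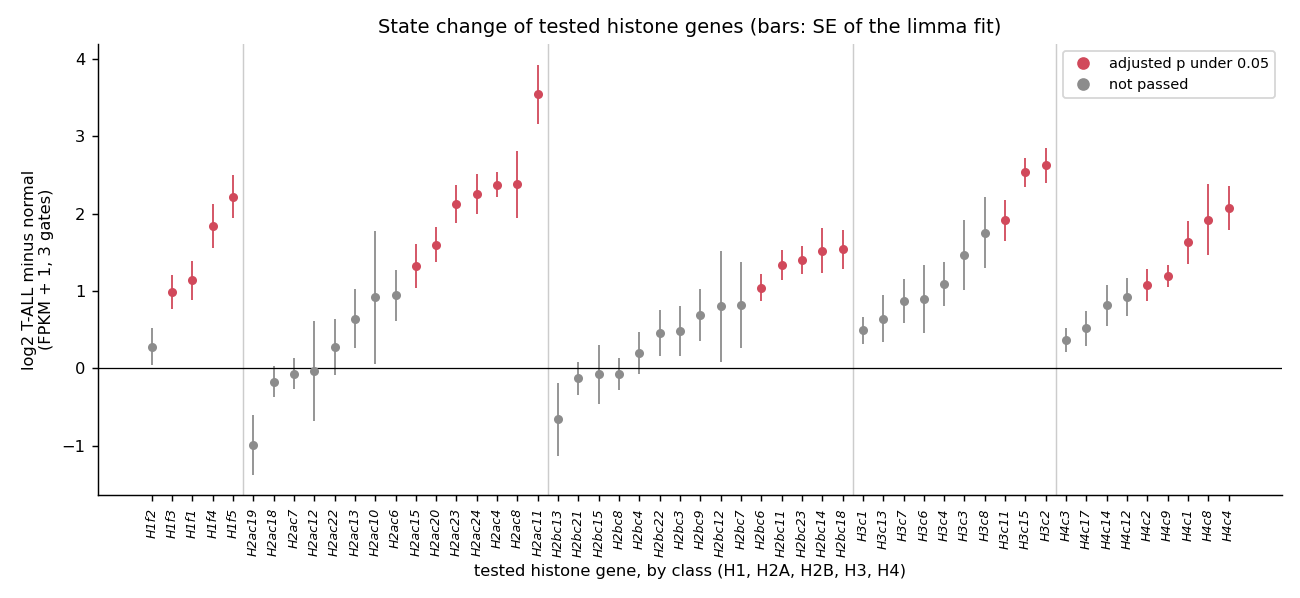
Difference between T-ALL and normal over the 3 gates (vertical axis, log2 of FPKM + 1) for the 54 tested histone genes, ordered within class on the horizontal axis; bars are the SE of the limma fit and red marks an adjusted p under 0.05. The 24 red points are all above 0; grey points with the lowest values, H2ac19 and H2bc13, have wide bars.

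Within each gate, where 1 library stands on each side and no test was made, the largest differences between states stood in Ly6chiF4/80lo and Ly6cloF4/80hi. In Ly6chiF4/80lo 26 genes reached 5 FPKM in a library, of which 21 were at least 2-fold higher in T-ALL (7.51% of all such genes) at a median log2 of 2.05. In Ly6cloF4/80lo it was 14 of 33 (5.69% overall) at a median of 0.97. In Ly6cloF4/80hi it was 21 of 32 (10.8% overall) at a median of 1.74. None was 2-fold lower in any gate, against 4.46%, 1.53% and 6.55% overall. The H2A genes had medians of 2.20, 0.97 and 2.61 in the 3 gates and the H2B genes of 1.21, 0.90 and 0.96. Whether the gates differ in their state change was not tested.

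Gates were compared over both states, with state as a block, to show which histone genes mark a macrophage subset. Few did. H3c1, at 0.89, 5.30 and 2.77 FPKM in normal and at 1.74, 6.82 and 4.82 FPKM in T-ALL, was lowest in Ly6chiF4/80lo in both states. It was the 1 gene of 54 higher in Ly6cloF4/80lo than in Ly6chiF4/80lo (log2 1.63, SE 0.21, adjusted p = 0.0184; limma; 2.68% of all genes), and 0 were lower (2.05% of all genes; also 0 at an unadjusted p under 0.05, where 7 were higher). In Ly6cloF4/80hi against Ly6chiF4/80lo, H3c1 (log2 1.04, SE 0.21, adjusted p = 0.0294) and H2ac7 (log2 1.09, SE 0.25, adjusted p = 0.0410) were higher, 2 of 54 against 7.10% of all genes. H2bc11 (log2 -1.10, SE 0.24, adjusted p = 0.0339) and H2ac22 (adjusted p = 0.00574), listed at 0 in both Ly6cloF4/80hi libraries, were lower, 2 of 54 against 5.68%. H2ac7 was at 2.62, 1.52 and 5.12 FPKM in normal and at 1.88, 1.17 and 6.76 FPKM in T-ALL. Only 14.2% of the 50-base windows of H2ac22 and 32.9% of those of H2ac7 are unique. The values of both genes, the 0 of H2ac22 included, thus depend on how fragments were shared among copies.

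In Ly6cloF4/80hi against Ly6cloF4/80lo, H2ac7 was higher (log2 1.56, SE 0.25, adjusted p = 0.0306; 1 of 54 against 2.66% of all genes). H2ac22 (adjusted p = 0.0214) and H2bc6 (log2 -1.22, SE 0.22, adjusted p = 0.0407; 2.36, 4.09 and 1.06 FPKM in normal, 4.90, 9.70 and 3.88 FPKM in T-ALL) were lower, 2 of 54 against 0.904%. The shares of histone genes called in these 3 comparisons are close to or below those of all genes, apart from the last, which rests on 2 genes. Median log2 differences of the histone genes were 0.25, 0.29 and -0.03 in the order given, beside 0.19, 0.12 and -0.10 for all genes. The 3 comparisons share libraries. Without state as a block 1 gene was called lower in Ly6cloF4/80hi than in Ly6chiF4/80lo and none in any other direction, and without either normal Ly6clo library no gene was called between the Ly6clo gates. Between the same gates, markers of other cells differed as well: all 10 erythroid markers were higher and all 6 neutrophil markers lower in Ly6cloF4/80hi than in Ly6chiF4/80lo, and their part in these calls was not tested.

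Many H2A and H2B genes stand head to head and share a promoter stretch. Of 8 such pairs with starts 164 to 249 bases apart, H2ac11 with H2bc11 and H2ac23 with H2bc23 were both higher in T-ALL. H2ac11 and H2bc11 have 21.1% and 40.6% unique windows, and H2ac23 and H2bc23 have 6.5% and 0.0%. How fragments were assigned among copies is uncertain for these pairs, so a joint change of neighbours is not read from them. H2ac8 was higher (log2 2.38) while its neighbour H2bc8, from the promoter stretch shown above, was at -0.07, with a T-ALL mean of 88.2 against a normal mean of 19.9 FPKM for the former and of 27.2 against 29.8 FPKM for the latter. H2ac15 was higher (log2 1.33) and H2bc15 did not pass (-0.08). In the pairs of H2ac7, H2ac12, H2ac13 and H2ac22 neither gene passed. No difference within a pair was tested. H2ac8 and H2bc8 have 56.8% and 50.3% unique windows and the same stem-loop, and both annotated transcripts run on for 151 and 155 bases after it.

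**Figure D4:**
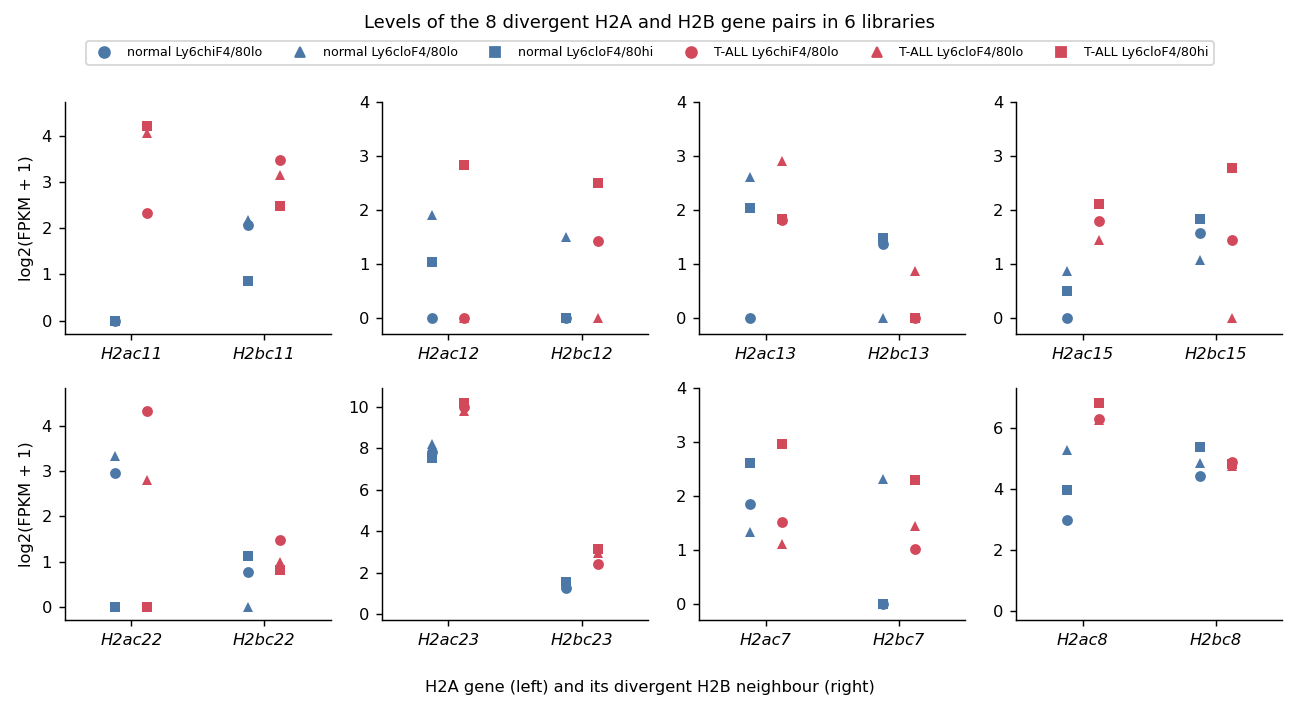
Levels, as log2(FPKM + 1) on the vertical axis, of the H2A gene (left) and the H2B gene (right) of 8 divergent pairs, 1 point per library (blue normal, red T-ALL, shape for the gate). In the H2ac8 and H2bc8 panel the red points lie above the blue ones for H2ac8 and among them for H2bc8.

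Many histone genes are near copies of each other, and the annotation differs in where their transcripts end. Of genes with at least 50% unique windows 12 of 26 tested were higher (median log2 1.02), and of those under 50% 12 of 28 (0.92). Genes whose transcript ends under 100 bases after the stem-loop were higher in 10 of 21 cases, and those that run on for at least 300 bases in 6 of 15. Those whose annotated transcript lacks the pattern were higher in 7 of 21. Their annotated transcripts range from 312 bases (H4c12) to 2620 bases (H2bc21), and the shortest may stop before a stem-loop. Of the remaining pair H2ac8 was higher and H2bc8 was not. These counts include untested genes, and no difference between them was tested.

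Genes that make, process and use histones were counted from fixed lists. Of 18 tested genes for histone mRNA transcription, 3′ end processing and decay, 3 were higher in T-ALL, 0 lower and 15 did not pass (median log2 0.19). They were the cyclins E that with Cdk2 activate histone gene transcription, Ccne1 (7.38 FPKM as mean in normal, 40.7 FPKM in T-ALL; log2 2.20, adjusted p = 0.0126) and Ccne2 (3.46 and 14.2 FPKM; 1.72, adjusted p = 0.0118), and Srrt, an RNA-processing factor (35.1 and 54.5 FPKM; 0.61, adjusted p = 0.0467). Slbp, the stem-loop binding protein, was at 64.1, 63.1 and 50.9 FPKM in normal and at 78.1, 118 and 143 FPKM in T-ALL and did not pass (0.88, adjusted p = 0.0583).

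Of 20 tested chaperones and deposition factors 6 were higher and 0 lower (median 0.49): Chaf1a (log2 1.73) and Chaf1b (1.67), subunits of the assembly factor CAF-1 that works at replication forks, Asf1a (0.83) and Asf1b (1.59), which carry H3 with H4, Nasp (1.25) and the acetyltransferase gene Hat1 (0.97). The replication-independent chaperone genes Hira, Daxx and Atrx did not pass, at 0.30, -0.04 and -0.29. Of 11 tested genes on the list of replication-independent histone variants 2 were higher and 0 lower (median 0.21). They were H2ax (1.11, adjusted p = 0.0138), which marks broken DNA when phosphorylated, and Cenpa (1.81, adjusted p = 0.00976), the centromeric H3. The list also holds H4f16, whose older name Hist4h4 is that of a clustered histone gene, and which did not pass (-0.63, limma adjusted p = 0.0831). H2az1 (0.97, adjusted p = 0.0533) and H1f0 (0.69, adjusted p = 0.167) did not pass, nor did H3f3a (0.21) and H3f3b (-0.11), which encode H3.3.

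Of 15 S phase replication genes 14 were higher and 0 lower (median 1.62), among them Rrm2 (log2 2.50) and Rrm1 (1.84) of ribonucleotide reductase and the replication initiation genes Cdc6 (2.26) and Cdc45 (2.05); Tyms did not pass (0.25). Their summed FPKM was 296, 432 and 340.0 in normal and 815, 1153 and 1468 in T-ALL, ratios of 2.75, 2.67 and 4.32 beside 3.95, 2.31 and 4.16 for the histone sum. The summed genes of the variant list, H4f16 included, had ratios of 1.12, 1.08 and 1.72.

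Markers of other cells in the gates moved with the state, and their part in the histone result was not tested. In bulk samples, fewer cells of a type and less RNA per cell cannot be told apart. Of 10 erythroid markers 6 were higher (Klf1, Slc4a1, Car1, Car2, Alas2 and Rhd), and their sum was 564, 470 and 3046 FPKM in normal libraries, against 556, 4476 and 25191 FPKM in T-ALL. In Ly6chiF4/80lo the sum, at 0.985 times the normal one, was set by Hba-a1, an alpha globin (461 FPKM in normal, 399 FPKM in T-ALL). The other 9 were at or above normal in that gate, from Epor at 1.48 and 1.49 FPKM to Car1, a carbonic anhydrase, at 6.41 and 20.6 FPKM, with Klf1 at 1.51 and 3.86 FPKM and Rhd at 0.62 and 2.78 FPKM. Of 7 myeloid progenitor markers 5 were higher (Mpo, Elane, Prtn3, Ctsg and Ms4a3), with sums of 260.1, 73.8 and 27.5 FPKM and of 1793, 326 and 84.7 FPKM. Of 6 plasma cell markers 5 were higher (Jchain, Sdc1, Mzb1, Derl3 and Xbp1), with sums of 5828, 730.1 and 459.8 FPKM and of 14596, 1715 and 1672 FPKM. Of 5 megakaryocyte and platelet markers 2 were higher (Pf4 and Itgb3; sums of 16.8 to 22.3 and 35.2 to 56.7 FPKM).

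Of 8 macrophage markers 3 were lower in T-ALL (Mertk, Fcgr1 and Spic) and 0 higher, with ratios of summed FPKM of 0.493, 0.850 and 0.524. Of 7 T cell markers 1 was lower (Cd4) and 6 did not pass, with sums of 114, 142 and 63.9 FPKM and of 64.6, 81.5 and 94.9 FPKM. The T-ALL sum was thus below the normal one in both F4/80lo gates and 1.49 times it in Ly6cloF4/80hi. In that gate the T cell receptor complex genes Cd3e and Cd3g were at 2.22 and 3.29 FPKM in normal and at 10.8 and 13.6 FPKM in T-ALL. Cd3d, Lck and Cd5 were also higher there (9.52, 16.7 and 3.57 FPKM, then 13.5, 32.3 and 4.32 FPKM). Cd4 and Cd8a were lower (22.1 and 6.47 FPKM, then 15.3 and 4.97 FPKM). Of 5 immature T cell markers 3 were tested and none passed, with sums of 33.4, 63.5 and 177 FPKM and of 33.0, 50.7 and 75.6 FPKM, most of it Cd1d1 (172 and 49.1 FPKM in Ly6cloF4/80hi). Dntt, the terminal transferase of immature lymphocytes, was at 4.43, 0.49 and 0.38 FPKM in normal and at 7.31, 2.70 and 16.5 FPKM in T-ALL (log2 1.86, limma adjusted p = 0.0772), and Ptcra and Rag1 were above normal in each of the 3 gates at up to 9.07 and 0.64 FPKM. The part of these markers in the histone result was not tested either. The 6 neutrophil markers did not pass over the 3 gates, where their sums moved in opposite directions. They summed to 12964, 366 and 303 FPKM in normal and to 43226, 90.7 and 185 FPKM in T-ALL, with ratios of 3.33, 0.248 and 0.608. The 5 B cell markers did not pass either (1261 to 3051 and 1112 to 2110.1 FPKM). Of 5 monocyte markers 4 were tested and 1, Ccr2, was lower (117 to 823 and 143 to 1656 FPKM). The ratios of their sums were 2.01, 0.791 and 1.23. Among all these markers Fcnb alone was listed at 0 in a library.

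**Figure D5:**
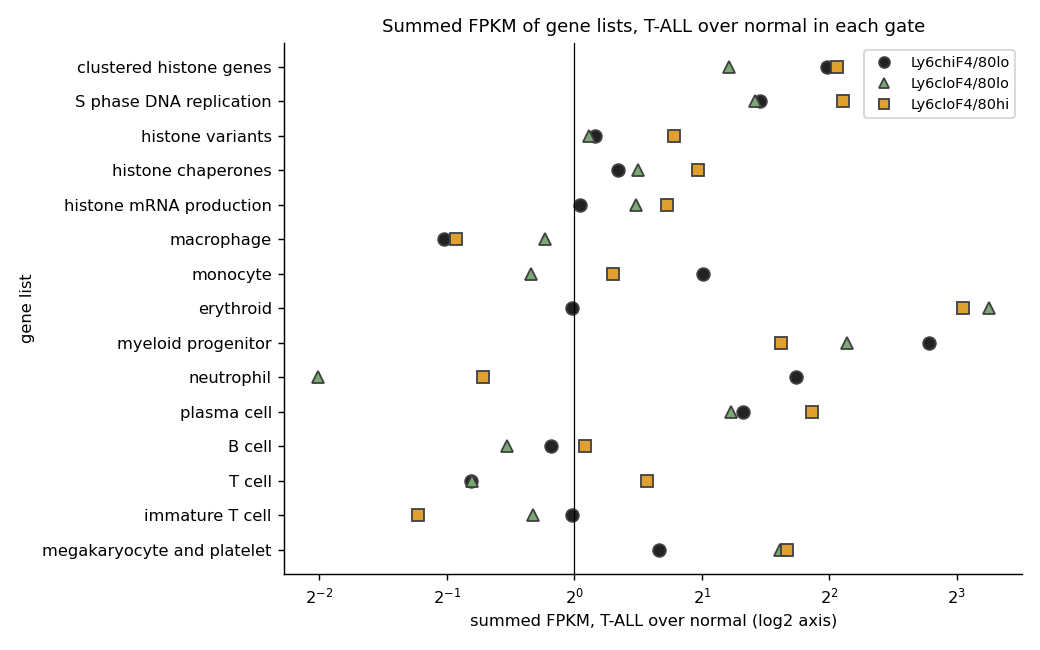
Summed FPKM of each gene list in T-ALL over normal (horizontal log2 axis, line at no change) for the lists on the vertical axis, 1 point per gate. Clustered histone genes (2.31 to 4.16) and S phase genes (2.67 to 4.32) lie to the right in all 3 gates, as do myeloid progenitor and plasma cell markers, while the erythroid sum, mostly Hba-a1, lies at 0.985 in Ly6chiF4/80lo and at 9.52 and 8.27 in the other gates.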

How the data were processed

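RNA-seq of sorted spleen macrophages gave 6 libraries, 1 for each of 3 gates in normal and T-ALL mice. The authors deposited FPKM per Entrez gene, made with Bowtie2 2.2.5 and RSEM per the submitters' processing notes. RSEM shares fragments that match several genes among them by estimate. The sources used here do not give the build, annotation or RSEM version, nor any poly(A) selection or rRNA removal, which would bear on mRNAs that lack a poly(A) tail. Genes that a file does not list were set to 0. Symbols came from a RefSeq table of GRCm38.p6 (16017 of 16058 identifiers, 99.7%).

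The scale was log2(FPKM + 1), with a pseudocount of 1, and the fit used limma 3.58.1 with statmod 1.5.0 under R 4.3.3. Tested were the 11616 genes that reached 1 FPKM in 2 or more of 6 libraries. The model held gate and state, with a trended and robust prior (2 residual degrees of freedom, median total 6.23). All p are two-sided and Benjamini-Hochberg adjusted over the genes tested, with 0.05 as threshold. An unpaired exact test of 3 against 3 libraries cannot go below p = 0.1. Within a gate, 2-fold differences were counted where 1 of 2 libraries reached 5 FPKM, with no test. A fold change on this scale understates that of low genes.

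Depth was estimated from how often the FPKM of 236 to 288 genes with a lone annotated length gave whole fragments (within 0.05), which was 32.2% to 42.9% at the estimate and 7.6% to 8.5% at the median of the depths tried. The share is too low to recover counts, so no count test was run. Stem-loops, transcript ends and the share of 50-base windows found in no other gene came from GENCODE M21 transcripts, and promoters from RefSeq. Scripts used Python 3.11.15, numpy 2.4.6, pandas 2.3.3 and matplotlib 3.10.9, and the fit and depth estimate were tested on simulated data.

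Values in every library are given for the 26 genes with 10 FPKM or more in 1 library, and full tests for the 10 of them with the largest state difference and for those that passed between gates. From each pathway list the rule picked up to 4 genes of 5 FPKM or more by the size of their difference. Other list genes named, Hba-a1, Epor, Cd3e and Rag1 among them, and H1f1, H1f3, H2bc13, H2bc15, H2bc23, H2ac15, H2ac19 and H3c2, were chosen after their values were seen, as were the tests given for H1f2, H2ac18, H2bc4 and H2bc8. The genes and lists were chosen with earlier results of these data known. Other settings tried were a pseudocount of 0.1, no filter, a mean of 5 FPKM or more, rescaling by median ratios, quantile normalization, a plain limma prior, no block, each library left out, genes with at least 50% unique windows, and floors of 2 and 10 FPKM within gates.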

Additional observations from a re-analysis of the deposited data

Results flagged for a closer look

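For 3 histone genes of at least 5 FPKM the state difference had opposite signs in a pair of gates, by at least 1.25-fold each way; with 1 library per gate and state these differences were not tested. H2ac22 was higher in T-ALL by 1.37 (log2 of FPKM + 1) in Ly6chiF4/80lo and at -0.53 in Ly6cloF4/80lo. H2bc4 was at 1.02 in Ly6chiF4/80lo and at -0.35 in Ly6cloF4/80lo. H2bc8 was at 0.47 in Ly6chiF4/80lo and at -0.59 in Ly6cloF4/80hi. None of the 3 passed in the state comparison over all gates.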

How the results depend on the processing

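The labels carry no replicate numbers, and the gate term pairs the normal and the T-ALL library of each gate. The count of 24 histone genes higher in T-ALL was 13 with no filter, 14 where the mean had to reach 5 FPKM (26 genes tested), 10 with no block and 12 among genes with at least 50% unique windows (26 tested). Leaving out each library gave 7 to 29, with 7 and 10 without the normal and the T-ALL Ly6cloF4/80hi library. The count lower was 0 to 1; the 1 was H2bc13, without either Ly6cloF4/80lo library. A library left alone in its gate adds nothing to the state term, so leaving out either one of a gate gives the same difference.

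Between Ly6cloF4/80lo and Ly6chiF4/80lo the 1 gene higher became 0 with the mean filter or no block, and 0 to 2 with a library left out. Between Ly6cloF4/80hi and Ly6chiF4/80lo the 2 higher became 0 with no filter, the mean filter, quantile normalization or no block, 1 with median-ratio factors or unique genes, and 1 to 4 with a library left out; the 2 lower became 1 with no filter, the mean filter or no block, 0 with unique genes, and 0 to 2 with a library left out. Between Ly6cloF4/80hi and Ly6cloF4/80lo the 1 higher became 0 with no filter, the mean filter, no block or unique genes, and 0 to 2 with a library left out; the 2 lower became 0 with no filter or no block, 1 with the mean filter, median-ratio factors or unique genes, and 0 to 3 with a library left out.

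Within gates, a floor of 2 FPKM gave 33 and 34 genes 2-fold higher in Ly6chiF4/80lo and Ly6cloF4/80hi (21 each at 5 FPKM), and 1 and 2 lower in Ly6chiF4/80lo and Ly6cloF4/80lo; a pseudocount of 0.1 gave 1 lower in Ly6cloF4/80lo. Unique genes gave 11, 5 and 9 higher in the 3 gates. The class sums kept their ratios within the limits set for all 60 alternatives. The cause of these changes was not tested, beyond the smaller number of genes or libraries that some settings leave.

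Signs reversed for 5 genes that were not called. With a library left out, differences ranged from -0.0704 to 0.54 for H1f2, -0.27 to 0.69 for H2ac22 and -0.21 to 0.48 for H2bc4, negative without either Ly6chiF4/80lo library, from -0.42 to 0.0124 for H2ac18, positive without either Ly6cloF4/80lo library, and from -0.34 to 0.18 for H2bc8, positive without either Ly6cloF4/80hi library. Depth limits genes under 10 FPKM, at which a transcript of 500 bases rests on 42.7 fragments or fewer and a longer one on more.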
